A study of Homo sapiens with 16 samples.

Results

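The genes described here are the subunits of the receptors for glutamate, GABA and glycine and of the serotonin-3 receptor. They were taken from the count table by symbol alone, with no measured value: a gene was a member where its symbol was that of an AMPA, kainate, delta, NMDA or metabotropic glutamate receptor subunit, a GABA-A, GABA-rho or GABA-B subunit, a glycine receptor subunit or a serotonin-3 subunit. Of 27037 genes in the table, 48 were members. They were compared across 4 groups of SK-N-BE(2)C cells, an established human neuroblastoma line of adrenergic type with amplified MYCN, each of 4 cultures kept for 5 days. The groups were DMSO as vehicle, retinoic acid (all-trans, 10 µM, RA), a ligand of nuclear receptors used to differentiate neuroblastoma, 1 µM palbociclib (PB), which blocks CDK4 and CDK6, the kinases that start the cell cycle, and both agents at those doses (PB+RA). Replicates were cells of different passage numbers plated as separate experiments, so all 16 libraries are of a single line, and the spread between them is that between such cultures.

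Fast transmission in the nervous system runs through receptors that are themselves ion channels. AMPA, kainate and NMDA receptors are assemblies of several subunits that open to glutamate and depolarize the cell, whereas GABA-A and glycine receptors pass chloride. The serotonin-3 receptor is a cation channel of the same superfamily as the GABA-A and glycine receptors, and it is found on peripheral, sympathetic and enteric neurons as well as in the brain. Metabotropic glutamate receptors and GABA-B receptors act more slowly, through G proteins. Neuroblastoma arises from the sympathetic lineage, whose mature neurons carry several of these receptors.

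RNA was measured by sequencing polyadenylated RNA. The libraries held between 19.5 and 31.6 M counts, and values are CPM, each count scaled by its library's total. The adrenergic identity of the line was visible in every library: the 7 adrenergic markers examined summed to between 2269 and 3682 CPM. The defining glial marker SOX10 was at 0 counts in 15 of 16 libraries, and 3 oligodendrocyte markers, of which 2 were in the table, summed to no more than 0.487 CPM. Of the 5 Schwann and satellite glia markers, S100B was present in every library, and the list summed to 14.5 to 19.1 CPM in DMSO, 18.5 to 22.3 with RA, 27.5 to 34.1 with PB and 30.1 to 34.5 with PB+RA. The 3 astrocyte markers summed to 5.57 to 6.28 CPM in DMSO, 6.49 to 7.88 with RA, 3.85 to 4.55 with PB and 4.93 to 5.94 with PB+RA. The 5 mesenchymal neuroblastoma markers in the table summed to 165 to 172 CPM in DMSO, 161 to 175 with RA, 198 to 258 with PB and 176 to 216 with PB+RA. Both PB sums lay above DMSO, but the markers did not move together. CD44 averaged 88.9 CPM in DMSO, 150 with PB and 119 with PB+RA, whereas SNAI2 averaged 18.5, 7.98 and 11.7. The 3 leukocyte markers in the table reached at most 6.55 CPM, nearly all of it CD68, and the 3 endothelial markers at most 2.39 CPM. The part of these markers in the receptor values was not tested.

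Receptor transcripts moved in both directions, and the direction depended on the subunit, also within a receptor class. With PB, some subunits of AMPA, kainate, NMDA and GABA-A receptors were higher. The kainate subunit GRIK3 was lower, averaging 5.52 CPM in DMSO and 3.58 with PB. So were the GABA-A subunits GABRQ (5.17 and 2.53) and GABRP (0.431 and 0.162). These falls were significant in only some of the fits described below. In PB+RA against PB, log2 differences were 0.08 ± 0.42 for GRIA1, -0.10 ± 0.32 for GRIK4 and 0.22 ± 0.21 for GRIK5 (SE), whereas GRIA4 and the GABA-A subunit GABRG3 fell in PB+RA against PB. The serotonin-3 subunits HTR3A and HTR3B fell with RA and were lowest in PB+RA. In bulk RNA, fewer cells that express a gene and less RNA in each cell cannot be told apart.

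Only 22 of the 48 members had enough reads to be tested, since a test needed about 0.409 CPM in at least 4 libraries. Of these, 15 were above that level in all 16 libraries. The other 7 were GABBR1, GABRP, GRIK4, GRIN2D, GRIN3A, GRM7 and GRM8. Of these, GABRP had all 4 libraries above it with RA alone, against 2 in DMSO, 0 with PB and 1 with PB+RA. It thus entered the test through the group in which it was high. GABBR1 had all 4 above it with PB+RA alone, and 0 in DMSO, 1 with RA and 3 with PB. Its entry rested on the treated groups, but not on PB+RA alone. A call needed an absolute log2 fold change above 0.5 and an edgeR quasi-likelihood p that, after Benjamini-Hochberg adjustment across the 15415 genes tested, was below 0.05. With PB, 7 members were called higher and 2 lower, against 16.9% and 11.3% of all genes tested, and their median log2 fold change was 0.43 against 0.03 for all genes. With RA, 4 were called higher and 7 lower, against 10.8% and 2.54% of all genes, with a median of -0.27 against 0.01. With PB+RA, 5 were called higher and 7 lower, against 24.0% and 17.9%, with a median of -0.35 against 0.04. Against PB, PB+RA had 8 members called lower and 0 higher, against 7.27% and 9.02% of all genes, with a median of -0.58 against -0.01. The count of 0 is from edgeR, DESeq2 also called 0, and 0 members were higher at an unadjusted p under 0.05. Against RA, PB+RA had 6 members called higher and 5 lower, against 14.9% and 14.1%, with a median of -0.05 against 0.00. The interaction, which is the log2 change with PB+RA minus those with PB and with RA, was called lower for 2 members and higher for 0, against 3.02% and 0.415% of all genes. DESeq2 also called 0 higher, but it gave no adjusted p for 4 of the 22, and 1 was higher at an unadjusted p under 0.05. These counts describe the 22 tested genes and not the 48 members.

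The replicate numbers were shared across groups and same-numbered samples deviated together, so a fit with the replicate number as a block was also made. It called 10 members higher and 5 lower with PB, 6 higher and 9 lower with RA, and 6 higher and 10 lower with PB+RA, and 0 higher and 8 lower in the interaction. Over all genes the same fit called 18.7% higher and 12.1% lower with PB, 13.0% higher and 3.30% lower with RA, 25.4% higher and 18.6% lower with PB+RA, and 1.23% higher and 6.36% lower in the interaction. Against PB it called 0 members higher and 10 lower (10.7% and 8.30% of all genes), and against RA 7 higher and 6 lower (16.3% and 15.2%). Every call of the fit without the block was also made with it. Its values are given below where it changed the call of a named member.

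**Figure D1:**
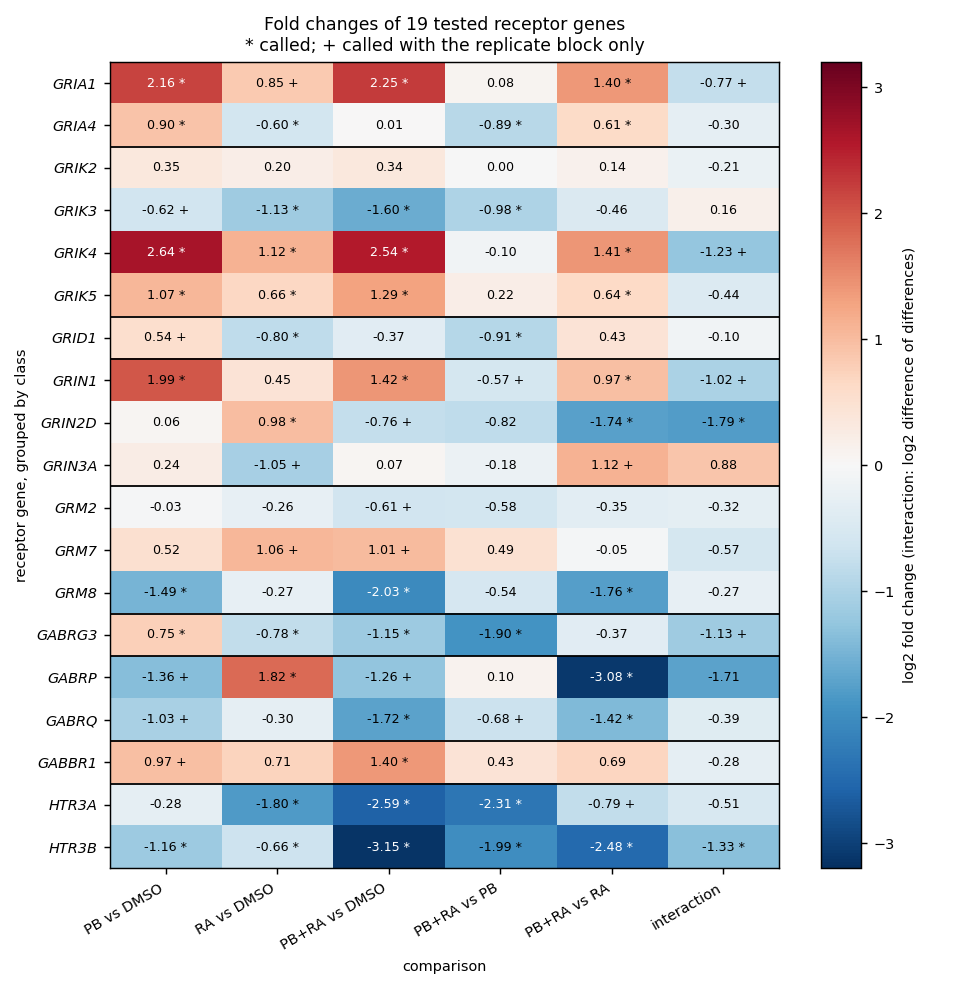
Log2 fold changes of 19 tested receptor genes (rows, grouped by class) in 5 comparisons and the interaction (columns), with the scale of colours in log2 units. An asterisk marks a called value and a plus a value called only with the replicate block, and HTR3B in PB+RA against DMSO is the lowest value at -3.15.

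Levels of different genes were compared only per length, as CPM per kb of merged exons, which counts the exons of all annotated isoforms and so understates genes with long alternative ends. On this scale HTR3A, the subunit that forms serotonin-3 receptors on its own, was at a mean of 6.72 CPM per kb over the 16 libraries, and the orphan-like delta receptor GRID1 at 5.45. Below these stood GRIA4 at 2.68, GRIK2 at 2.24, GRIK5 at 1.65 and HTR3B at 1.34. The obligatory NMDA subunit GRIN1 was at 0.725 and GRIA1 at 0.751, and each other member named here was under 0.6.

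Summed over all members, receptor transcripts came to 41.1 ± 6.02 in DMSO, 25.8 ± 1.90 with RA, 47.6 ± 6.99 with PB and 29.9 ± 1.41 with PB+RA CPM per kb (mean ± SD, n = 4). The sum was lowest with RA and highest with PB. The serotonin-3 class summed to 14.2 ± 5.53 in DMSO, 4.94 ± 1.44 with RA, 10.8 ± 5.53 with PB and 2.27 ± 0.860 with PB+RA CPM per kb, and its share of the sum was 33.7% ± 8.4 in DMSO, 18.9% ± 4.2 with RA, 21.8% ± 8.3 with PB and 7.53% ± 2.66 with PB+RA. AMPA subunits summed to 2.62 ± 0.400 in DMSO, 2.03 ± 0.408 with RA, 5.52 ± 0.537 with PB and 3.62 ± 0.185 with PB+RA CPM per kb, and NMDA subunits to 0.541 ± 0.138 in DMSO, 0.727 ± 0.158 with RA, 1.49 ± 0.509 with PB and 1.06 ± 0.295 with PB+RA. The kainate class summed to 3.38 ± 0.250 in DMSO, 3.97 ± 0.352 with RA, 4.91 ± 0.478 with PB and 5.14 ± 0.566 with PB+RA. GRIA3, GRIK1 and GRIN2B were not in the count table, so the AMPA, kainate and NMDA sums lack them. These sums and shares were computed after the values of single genes had been seen and carry no test.

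**Figure D2:**
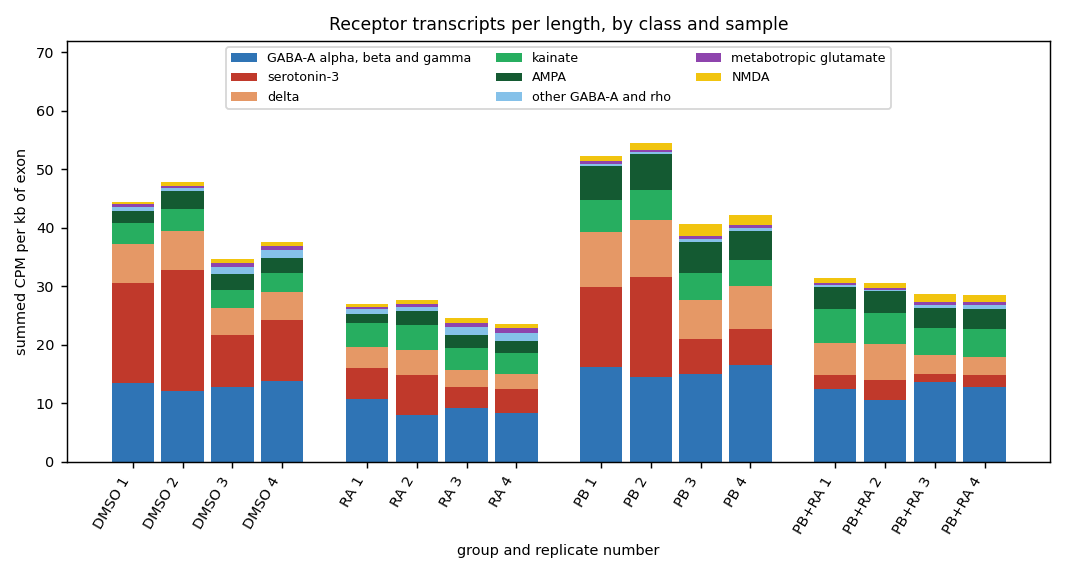
Summed CPM per kb of exon (vertical axis) for 8 receptor classes in each of the 16 libraries (horizontal axis, group and replicate number). The GABA-B and glycine classes are left out because their sums are too small to see. The serotonin-3 part of the bar is largest in DMSO replicate 2 and is small in the 4 PB+RA libraries.

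AMPA receptors carry most fast excitatory transmission, and their subunits GRIA1 and GRIA4 both rose with PB and in PB+RA against RA. GRIA1 was 2.02, 0.693, 2.53 and 2.40 CPM in DMSO replicates 1 to 4, 2.70, 1.17, 5.12 and 5.0004 with RA, 10.9, 4.45, 9.08 and 10.1 with PB and 9.42, 4.56, 11.2 and 12.3 with PB+RA. All 8 libraries with PB, alone or with RA, were above the 4 DMSO libraries, and replicate 2 was the lowest of its group in each condition. GRIA1 was called higher with PB (log2 fold change 2.16 ± 0.46 (SE), adjusted p = 0.00106) and after both agents (2.25 ± 0.46, adjusted p = 0.000525), and higher in PB+RA than in RA (1.40 ± 0.44, adjusted p = 0.0145). With RA alone the value was 0.85 ± 0.47, adjusted p = 0.179, and it was called higher with the block (0.84, adjusted p = 0.000539). The interaction was -0.77 ± 0.63, adjusted p = 0.601, and it was called lower with the block (-0.77, adjusted p = 0.0207).

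GRIA4 was the AMPA subunit of highest level per length. It read 19.5, 31.5, 24.9 and 23.5 CPM in DMSO replicates 1 to 4, 11.5, 23.2, 16.01 and 15.3 with RA, 46.8, 58.1, 42.6 and 38.2 with PB and 27.3, 33.4, 21.1 and 20.04 with PB+RA. The 4 PB libraries lay above all others, and the PB+RA libraries overlapped those of DMSO. GRIA4 was called higher with PB (log2 fold change 0.90 ± 0.21 (SE), adjusted p = 0.00203) and lower in PB+RA than in PB (-0.89 ± 0.21, adjusted p = 0.00383), and PB+RA differed little from DMSO (0.01 ± 0.21, adjusted p = 0.977). With RA it was called lower (-0.60 ± 0.22, adjusted p = 0.0420), and it was called higher in PB+RA than in RA (0.61 ± 0.22, adjusted p = 0.0271). The RA call was lost without DMSO replicates 2, 3 or 4 or RA replicates 1, 3 or 4, each left out in turn (-0.47 to -0.63, adjusted p from 0.0574 to 0.124), and the call against RA without RA replicates 1, 3 or 4 or PB+RA replicates 1 or 2, each left out in turn (0.43 to 0.61, adjusted p from 0.0513 to 0.115). The RA call was also lost with genes kept at a summed count above 10 (adjusted p = 0.0529) and with only the groups compared (adjusted p = 0.0541). The GRIA1 share of AMPA CPM per kb was 9.79% ± 4.60 in DMSO, 22.6% ± 11.2 with RA, 20.5% ± 7.6 with PB and 33.6% ± 13.3 with PB+RA. GRIA2, the subunit whose edited form makes the receptor impermeable to calcium, had 28, 29, 14 and 14 counts summed over the 4 libraries of DMSO, RA, PB and PB+RA, and it was not tested.

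**Figure D3:**
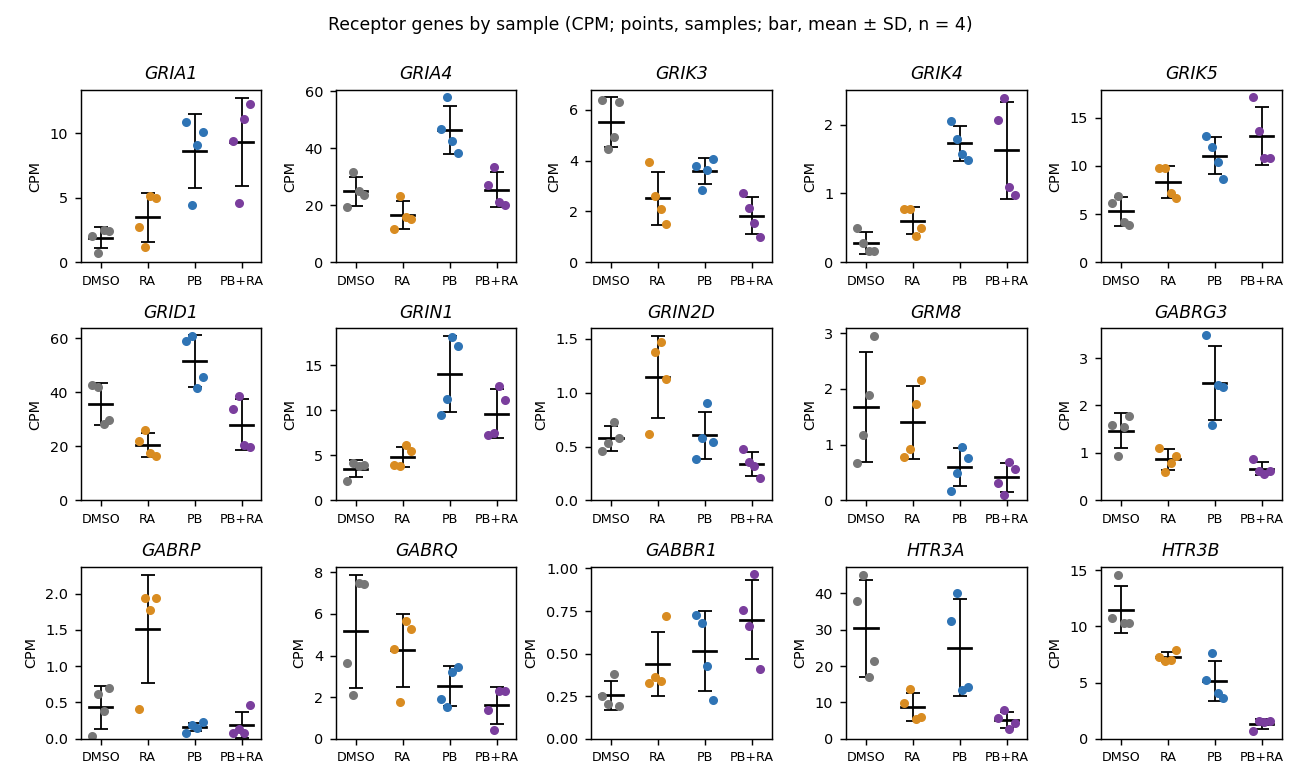
CPM (vertical axes, each from 0) of 15 called receptor genes in the 4 groups (horizontal axes), with a point for each library and a bar for the mean ± SD (n = 4). GRIA1, GRIK4, GRIK5 and GRIN1 are higher in the PB and PB+RA groups, and HTR3B falls from 10.3 to 14.6 CPM in DMSO to 0.676 to 1.59 CPM in PB+RA.

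Kainate receptors combine low-affinity subunits, GRIK2 and GRIK3 among them, with the high-affinity subunits GRIK4 and GRIK5, which form working channels only together with the others. Both high-affinity subunits rose with PB and with PB+RA, GRIK3 fell with RA and PB+RA, and GRIK2 stayed within a log2 difference of 0.35 of DMSO. GRIK4 was 0.496, 0.285, 0.158 and 0.155 CPM in DMSO replicates 1 to 4, 0.778, 0.768, 0.377 and 0.496 with RA, 2.06, 1.79, 1.57 and 1.49 with PB and 2.07, 2.39, 1.09 and 0.974 with PB+RA. Every PB and PB+RA library was above every DMSO library, although the DMSO values rest on 4 to 14 counts a library. GRIK4 was called higher with PB (log2 fold change 2.64 ± 0.39 (SE), adjusted p = 2.36e-05), with PB+RA (2.54 ± 0.39, adjusted p = 2.12e-05) and in PB+RA against RA (1.41 ± 0.35, adjusted p = 0.00268). The RA call was at the edge of the threshold (1.12 ± 0.42, adjusted p = 0.0497), and it was lost without DMSO replicates 2, 3 or 4, RA replicates 1, 2 or 4, PB replicates 1, 2, 3 or 4 or PB+RA replicate 1, each left out in turn (0.89 to 1.18, adjusted p from 0.0528 to 0.145). It was also lost with DESeq2's size factors (adjusted p = 0.0537), with genes kept at a summed count above 10 (0.0576) and with only the groups compared (0.0544). With the block its interaction was called lower (-1.26, adjusted p = 0.0257), and without it the value was -1.23 ± 0.53, adjusted p = 0.222.

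GRIK5 read 6.13, 6.89, 4.21 and 3.83 CPM in DMSO replicates 1 to 4, 9.75, 9.74, 7.23 and 6.62 with RA, 13.1, 11.997, 10.5 and 8.69 with PB and 17.2, 13.6, 10.8 and 10.9 with PB+RA. The PB and PB+RA libraries did not overlap those of DMSO, and replicates 1 and 2 were above replicates 3 and 4 in every group. GRIK5 was called higher with PB (log2 fold change 1.07 ± 0.21 (SE), adjusted p = 0.000442), PB+RA (1.29 ± 0.21, adjusted p = 4.63e-05) and RA (0.66 ± 0.21, adjusted p = 0.0240), and in PB+RA against RA (0.64 ± 0.21, adjusted p = 0.0155). The RA call was lost without DMSO replicates 3 or 4 or RA replicates 1 or 2, each left out in turn (0.53 to 0.57, adjusted p from 0.0720 to 0.0844), and the call against RA without PB+RA replicate 1 (0.45, adjusted p = 0.0815). Together GRIK4 and GRIK5 made up 28.0% ± 6.2 of kainate CPM per kb in DMSO, 38.4% ± 4.6 with RA, 43.9% ± 3.4 with PB and 48.4% ± 6.3 with PB+RA.

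GRIK3 was 6.38, 4.44, 4.93 and 6.31 CPM in DMSO replicates 1 to 4, 3.93, 2.59, 2.07 and 1.49 with RA, 3.78, 2.85, 3.61 and 4.07 with PB and 2.70, 2.13, 1.54 and 0.974 with PB+RA. All 4 DMSO libraries were above every treated library. GRIK3 was called lower with RA (log2 fold change -1.13 ± 0.28 (SE), adjusted p = 0.00472), with PB+RA (-1.60 ± 0.29, adjusted p = 0.000113) and in PB+RA against PB (-0.98 ± 0.29, adjusted p = 0.0147). With PB the value was -0.62 ± 0.27, adjusted p = 0.0641. It became a call with the block (-0.62, adjusted p = 0.0118) and without DMSO replicate 2, RA replicates 1 or 4 or PB+RA replicates 1 or 4, each left out in turn (-0.64 to -0.74, adjusted p from 0.0316 to 0.0475). GRIK2 was the kainate subunit of highest level per length, with lowest and highest libraries of 46.7 and 53.6 CPM in DMSO, 55.2 and 62.3 with RA, 61.0 and 68.1 with PB and 62.9 and 69.8 with PB+RA. Each treated group lay wholly above DMSO, yet the log2 fold changes of 0.35 ± 0.057 with PB, 0.20 ± 0.057 with RA and 0.34 ± 0.057 with PB+RA (SE) were below the fold minimum, with adjusted p of 8.23e-05, 0.0106 and 5.52e-05.

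GRIA1, GRIK4 and GRIK5 are members that rose with both PB and PB+RA, and the sequence around their first listed start site is shown so that its base composition and motifs can be read. Each run spans 250 bases before and 50 bases from the start, 5′ to 3′ on the strand of the gene, from RefSeq on GRCh38.p14. GRIA1 lies at chr5:153490420-153490719 on the plus strand, GRIK4 at chr11:120511498-120511797 on the plus strand and GRIK5 at chr19:42070157-42070456 on the minus strand. Capitals mark a motif that was searched for.
GRIA1: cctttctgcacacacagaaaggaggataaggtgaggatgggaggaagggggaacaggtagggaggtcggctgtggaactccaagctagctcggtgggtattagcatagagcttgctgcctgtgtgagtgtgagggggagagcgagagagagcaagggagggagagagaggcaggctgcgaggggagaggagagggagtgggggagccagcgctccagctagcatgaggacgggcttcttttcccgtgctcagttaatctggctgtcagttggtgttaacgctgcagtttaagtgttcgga
GRIK4: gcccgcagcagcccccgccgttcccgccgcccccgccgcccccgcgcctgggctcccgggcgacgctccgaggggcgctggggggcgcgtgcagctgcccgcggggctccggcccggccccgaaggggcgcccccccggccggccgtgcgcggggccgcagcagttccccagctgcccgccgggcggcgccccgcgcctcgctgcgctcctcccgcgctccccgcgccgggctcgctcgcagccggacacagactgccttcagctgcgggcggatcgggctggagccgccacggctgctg
GRIK5: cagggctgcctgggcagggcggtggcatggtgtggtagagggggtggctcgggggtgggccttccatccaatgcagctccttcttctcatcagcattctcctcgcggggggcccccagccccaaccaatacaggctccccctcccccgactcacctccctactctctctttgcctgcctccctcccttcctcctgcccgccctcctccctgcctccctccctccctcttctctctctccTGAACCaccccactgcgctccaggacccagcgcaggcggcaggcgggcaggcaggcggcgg
The motifs, chosen after the expression values had been seen, were searched on both strands. They were the core motif of retinoid receptors (spelled AGGTCA, the variant GGGTCA, the variant AGTTCA, and the variant GGTTCA), the site of E2F, the factor downstream of CDK4 and CDK6 (TTTCCCGC, TTTCGCGC, TTTGCCGC or TTTGGCGC), and both parts of the site of the neuronal repressor REST (CAGCACC and GGACAG). GRIK5 held 1 match to the retinoid core motif, 11 bases before the start on the minus strand of the gene. GRIA1 and GRIK4 held no match, which says only that these letters are not in these windows. Of the 27305 windows in the RefSeq table, 38.7% held the retinoid core motif, 3.33% an E2F motif, 7.64% CAGCACC and 20.5% GGACAG. Among the 35 members with a listed window, 9, 3, 3 and 11 did. The windows differed in composition, with 57.3% G and C and 9 CpG in GRIA1, 84.3% and 49 CpG in GRIK4 and 69.0% and 12 CpG in GRIK5.

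The delta receptors resemble AMPA receptors in sequence but do not open to glutamate, and they act as organizers of synapses. GRID1 was 42.6, 41.9, 28.4 and 29.8 CPM in DMSO replicates 1 to 4, 21.9, 26.1, 17.7 and 16.4 with RA, 58.9, 60.9, 41.5 and 45.5 with PB and 33.6, 38.6, 20.3 and 19.7 with PB+RA. Within each replicate number the order of the groups was PB, DMSO, PB+RA and RA from high to low, and replicates 1 and 2 were above replicates 3 and 4 in every group. The RA libraries lay below all DMSO libraries and the PB+RA libraries below all PB libraries. GRID1 was called lower with RA (log2 fold change -0.80 ± 0.23 (SE), adjusted p = 0.0141) and in PB+RA against PB (-0.91 ± 0.23, adjusted p = 0.00606). The value with PB was 0.54 ± 0.23, adjusted p = 0.0580, and it became a call with the block (0.54, adjusted p = 1.37e-06). With PB+RA it was -0.37 ± 0.23, adjusted p = 0.167, and it was called lower without PB+RA replicate 2 (-0.59, adjusted p = 0.0378). The value against RA was 0.43 ± 0.23, adjusted p = 0.128, and it was called higher without PB+RA replicate 4 (0.59, adjusted p = 0.0481).

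NMDA receptors need the GRIN1 subunit, joined by GRIN2 or GRIN3 subunits that set their conductance and kinetics. GRIN1 rose with PB and PB+RA, whereas GRIN2D, the GRIN2 subunit with the most reads, rose with RA and was lower in PB+RA than in RA. GRIN1 was 2.20, 4.16, 3.86 and 3.91 CPM in DMSO replicates 1 to 4, 3.97, 3.80, 6.10 and 5.50 with RA, 9.52, 11.3, 18.1 and 17.2 with PB and 7.24, 7.48, 12.6 and 11.1 with PB+RA. The PB and PB+RA libraries lay above all DMSO and RA libraries. GRIN1 was called higher with PB (log2 fold change 1.99 ± 0.26 (SE), adjusted p = 1.09e-05), with PB+RA (1.42 ± 0.26, adjusted p = 0.000189) and in PB+RA against RA (0.97 ± 0.26, adjusted p = 0.00504), and with RA the value was 0.45 ± 0.27, adjusted p = 0.211. In PB+RA against PB it was -0.57 ± 0.25, adjusted p = 0.0826, called lower with the block (-0.56, adjusted p = 0.000245) and without PB replicate 1 or PB+RA replicate 3, each left out in turn (-0.71 to -0.74, adjusted p from 0.0380 to 0.0427). Its interaction was -1.02 ± 0.37, adjusted p = 0.132, and it was called lower with the block (-1.02, adjusted p = 0.000371).

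GRIN2D was low, at 0.461, 0.530, 0.727 and 0.581 CPM in DMSO replicates 1 to 4, 0.614, 1.37, 1.47 and 1.13 with RA, 0.386, 0.580, 0.903 and 0.543 with PB and 0.477, 0.354, 0.323 and 0.205 with PB+RA. The RA libraries overlapped those of DMSO at replicate 1 and were otherwise above, and the PB+RA libraries lay below all RA libraries. GRIN2D was called higher with RA (log2 fold change 0.98 ± 0.30 (SE), adjusted p = 0.0190) and lower in PB+RA than in RA (-1.74 ± 0.33, adjusted p = 0.000323). The interaction was called (-1.79 ± 0.47, adjusted p = 0.0359), so the change with PB+RA was below the sum of the changes with each agent. The RA call was lost without DMSO replicate 1 or RA replicates 2 or 3, each left out in turn (0.81 to 0.87, adjusted p from 0.0552 to 0.0753). The interaction call was lost without DMSO replicates 1, 2 or 4, RA replicates 2, 3 or 4, PB replicates 2, 3 or 4 or PB+RA replicates 2, 3 or 4, each left out in turn (-1.52 to -1.83, adjusted p from 0.0566 to 0.0940). In PB+RA against DMSO the value was -0.76 ± 0.35, adjusted p = 0.0685, called lower with the block (-0.74, adjusted p = 0.0460) and without RA replicate 1, PB replicate 3 or PB+RA replicate 1, each left out in turn (-0.77 to -1.004, adjusted p from 0.0364 to 0.0477). Per kb, GRIN2 subunits summed to 0.346 ± 0.070 for each GRIN1 in DMSO, 0.492 ± 0.164 with RA, 0.0896 ± 0.0179 with PB and 0.0868 ± 0.0463 with PB+RA, and the 8 libraries with PB did not overlap the 8 without. The GRIN2 subunits summed were GRIN2A, GRIN2C and GRIN2D, since GRIN2B was not in the count table. That ratio was formed after the values had been seen and has no test.

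GRIN3A, a subunit that lowers the calcium flow through NMDA receptors, differed mainly between replicate numbers. It read 0.213, 0.245, 1.11 and 1.316 CPM in DMSO replicates 1 to 4, 0.164, 0.121, 0.452 and 0.676 with RA, 0.0429, 0.435, 1.57 and 1.40 with PB and 0.596, 0.266, 1.13 and 1.13 with PB+RA. Groups overlapped, and no comparison was called. With the block it was called lower with RA (-1.02, adjusted p = 0.0328) and higher in PB+RA than in RA (1.19, adjusted p = 0.0115), against -1.05 ± 0.82, adjusted p = 0.341 and 1.12 ± 0.83, adjusted p = 0.270 without it. GRIN2A, GRIN2C and GRIN3B had 6, 10 and 27 counts summed over the 16 libraries, and GRIN3B overlaps the highly expressed TMEM259 on the opposite strand.

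Metabotropic glutamate receptors are G protein coupled, and the members with most reads, GRM2, GRM7 and GRM8, are of the groups that lower cyclic AMP and restrain transmitter release. GRM8 was 0.674, 1.18, 1.90 and 2.94 CPM in DMSO replicates 1 to 4, 0.778, 0.930, 1.73 and 2.16 with RA, 0.172, 0.484, 0.951 and 0.770 with PB and 0.318, 0.0886, 0.687 and 0.564 with PB+RA. The PB+RA libraries lay below all RA libraries, and both PB groups overlapped DMSO at its lowest library, replicate 1. GRM8 was called lower with PB (log2 fold change -1.49 ± 0.54 (SE), adjusted p = 0.0292), with PB+RA (-2.03 ± 0.57, adjusted p = 0.00494) and in PB+RA against RA (-1.76 ± 0.58, adjusted p = 0.0169), and with RA the value was -0.27 ± 0.49, adjusted p = 0.704. The PB call was lost without DMSO replicates 3 or 4 or PB replicates 1 or 2, each left out in turn (-1.09 to -1.44, adjusted p from 0.0574 to 0.114). The call against RA was lost without RA replicate 4 (-1.47, adjusted p = 0.0576). The PB+RA libraries rest on 2 to 17 counts.

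GRM2 was the metabotropic member of highest level per length, with 1.22 to 1.63 CPM in DMSO, 0.904 to 1.58 with RA, 0.996 to 1.84 with PB and 0.615 to 1.28 with PB+RA. No value was called. In PB+RA against DMSO it was -0.61 ± 0.27, adjusted p = 0.0534, and it was called lower with the block (-0.63, adjusted p = 0.0215) and without DMSO replicate 2, RA replicate 3, PB replicates 2, 3 or 4 or PB+RA replicates 1 or 2, each left out in turn (-0.62 to -0.79, adjusted p from 0.0253 to 0.0481). GRM7 was 0.390, 0.815, 1.14 and 1.12 CPM in DMSO replicates 1 to 4, 0.328, 1.62, 2.86 and 2.52 with RA, 0.686, 0.677, 2.04 and 1.58 with PB and 0.676, 1.15, 2.87 and 2.51 with PB+RA. Replicate 1 stood lowest in DMSO, RA and PB+RA, and replicates 3 and 4 were above replicates 1 and 2 in every group. Without the block GRM7 was 1.06 ± 0.58, adjusted p = 0.169 with RA and 1.01 ± 0.58, adjusted p = 0.139 with PB+RA. Both were called higher with it (1.03, adjusted p = 0.000967 with RA and 1.001, adjusted p = 0.000698 with PB+RA), and the RA value was called without RA replicate 1 (1.38, adjusted p = 0.0429). GRM4 and GRM6 had 73 and 54 counts in all and were not tested, and the counts of GRM4 were 6 in DMSO, 14 with RA, 15 with PB and 38 with PB+RA.

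GABA-A receptors usually join alpha, beta and gamma subunits around a chloride channel. The gamma subunit GABRG3 rose with PB and fell with RA and with PB+RA. GABRG3 was 1.60, 0.938, 1.55 and 1.78 CPM in DMSO replicates 1 to 4, 1.11, 0.607, 0.791 and 0.946 with RA, 3.48, 1.60, 2.42 and 2.40 with PB and 0.875, 0.620, 0.566 and 0.615 with PB+RA. The PB+RA libraries were below all DMSO libraries. It was called higher with PB (log2 fold change 0.75 ± 0.25 (SE), adjusted p = 0.0160), lower with RA (-0.78 ± 0.27, adjusted p = 0.0320), lower with PB+RA (-1.15 ± 0.28, adjusted p = 0.00155) and lower in PB+RA than in PB (-1.90 ± 0.27, adjusted p = 4.78e-05). The PB call was lost without DMSO replicate 2 or PB replicate 1, each left out in turn (0.53 to 0.57, adjusted p from 0.0653 to 0.0941), and the RA call without DMSO replicates 1, 3 or 4 or RA replicates 2 or 3, each left out in turn (-0.65 to -0.77, adjusted p from 0.0584 to 0.0876). Its interaction was -1.13 ± 0.38, adjusted p = 0.110, called lower with the block (-1.12, adjusted p = 0.00953). Untested members of the class had few reads, with 3 counts in all for GABRA2, 64 for GABRA3, 23 for GABRA4, 17 for GABRA5, 30 for GABRB2, 11 for GABRB1 and 9 for GABRG1.

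GABRP and GABRQ encode the pi and theta subunits, which are found in few tissues. GABRQ was 3.65, 2.12, 7.50 and 7.43 CPM in DMSO replicates 1 to 4, 4.30, 1.78, 5.65 and 5.27 with RA, 1.89, 1.55, 3.23 and 3.44 with PB and 1.39, 0.443, 2.30 and 2.31 with PB+RA. Replicates 3 and 4 were above replicates 1 and 2 in every group, and the groups overlapped, although within each replicate number PB+RA was lowest. GABRQ was called lower with PB+RA (log2 fold change -1.72 ± 0.50 (SE), adjusted p = 0.00659) and in PB+RA against RA (-1.42 ± 0.50, adjusted p = 0.0255). The call against RA was lost without RA replicates 3 or 4 or PB+RA replicates 1 or 2, each left out in turn (-1.13 to -1.38, adjusted p from 0.0599 to 0.0726). With PB the value was -1.03 ± 0.48, adjusted p = 0.0804, called lower with the block (-0.996, adjusted p = 1.14e-05) and without DMSO replicate 2 or PB+RA replicate 2, each left out in turn (-1.06 to -1.32, adjusted p from 0.0262 to 0.0462). In PB+RA against PB it was -0.68 ± 0.52, adjusted p = 0.325, called lower with the block (-0.71, adjusted p = 0.00353).

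GABRP was 0.0355, 0.611, 0.379 and 0.697 CPM in DMSO replicates 1 to 4, 0.410, 1.94, 1.77 and 1.94 with RA, 0.0858, 0.193, 0.143 and 0.226 with PB and 0.0795, 0.133, 0.0808 and 0.461 with PB+RA. RA replicates 2 to 4 were the highest libraries, DMSO replicate 1 and RA replicate 1 were the lowest of their groups, and all 8 libraries with PB had 2 to 9 counts. GABRP was called higher with RA (log2 fold change 1.82 ± 0.55 (SE), adjusted p = 0.0167) and lower in PB+RA than in RA (-3.08 ± 0.65, adjusted p = 0.000750), and the latter moved to -3.89 (adjusted p = 0.000359) without PB+RA replicate 4. GABRP had entered the test through its high RA libraries, which limits both calls. The values were -1.36 ± 0.76, adjusted p = 0.142 with PB and -1.26 ± 0.74, adjusted p = 0.143 with PB+RA. Both were called lower with the block (-1.33, adjusted p = 0.0124 and -1.22, adjusted p = 0.0140). PB was also called without DMSO replicate 1 (-1.78, adjusted p = 0.0304), and the PB+RA value became a call without DMSO replicate 1 or PB+RA replicate 4, each left out in turn (-1.66 to -2.10, adjusted p from 0.0298 to 0.0379). GABRD, GABRR1, GABRR2 and GABRR3 had 6, 4, 109 and 3 counts in all.

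The GABA-B receptor is a dimer of GABBR1, which binds GABA, and GABBR2, which couples to the G protein. GABBR1 stayed below 1 CPM in every library, with 7, 5, 12 and 5 counts in DMSO replicates 1 to 4, 8, 9, 9 and 16 with RA, 17, 14, 9 and 5 with PB and 19, 15, 24 and 8 with PB+RA. It was called higher with PB+RA (log2 fold change 1.40 ± 0.39 (SE), adjusted p = 0.00483), and all 4 PB+RA libraries were above the DMSO libraries on the CPM scale. PB+RA was also the only group with all 4 libraries above the filter level, which limits this call. With PB the value was 0.97 ± 0.41, adjusted p = 0.0573, called higher with the block (0.97, adjusted p = 0.0480) and without DMSO replicate 3, RA replicate 4 or PB replicate 4, each left out in turn (0.95 to 1.22, adjusted p from 0.0185 to 0.0490). Against RA it was 0.69 ± 0.37, adjusted p = 0.127, called higher without RA replicate 4 (1.03, adjusted p = 0.0372). GABBR2, which was not tested, had 40, 40, 28 and 19 counts summed over DMSO, RA, PB and PB+RA. GABBR1 overlaps UBD on the same strand, and UBD was at 0.00509 CPM.

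Glycine receptors were close to absent at this depth. Over the 4 libraries of each group the class summed to 1 count in DMSO, 6 with RA, 6 with PB and 22 with PB+RA. GLRA2 gave 0, 2, 2 and 10 of these counts and the beta subunit GLRB 1, 2, 3 and 9, while GLRA3 and GLRA4 had 2 and 4 counts in all. In the annotation used for exon lengths, GLRA4 is a transcribed pseudogene and not a protein-coding gene. GLRA2 overlaps FANCB, at 4.36 CPM, on the opposite strand. With 12 of the 26 untested members at 10 counts or fewer over 16 libraries, differences in them were not detectable here. Where genes were kept at a summed count above 10, GRM4 was called higher with PB+RA (2.74, adjusted p = 0.000743) and in PB+RA against RA (1.43, adjusted p = 0.0333), and GLRA2, at 0 counts in DMSO, was called higher with PB+RA (adjusted p = 0.00607). In the same setting GABRA5, with 0 counts in DMSO and 0 to 4 a library with PB, was called higher with PB (adjusted p = 0.0118), and GRIN3B, with 1 to 3 counts a library in DMSO and 0 with PB, was called lower with PB (adjusted p = 0.0441). GLRA2 and GABRA5 passed that filter through the group in which they were called, with 10 of 14 counts in PB+RA and 9 of 17 in PB. Members with 0 counts in all 4 DMSO libraries included GABRA5, GABRR1, GLRA2, GLRA3, GLRA4 and HTR3E, which allows up to 0.0949 CPM in the deepest and 0.122 CPM in the shallowest DMSO library (3 counts, covering counting error only).

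Serotonin-3 receptors need HTR3A, and HTR3B joins it to give channels of higher conductance. Both subunits were expressed and both were lowest in PB+RA. HTR3A fell with RA and with PB+RA, and HTR3B fell with each agent and further with both. HTR3A was 37.9, 45.2, 17.1 and 21.4 CPM in DMSO replicates 1 to 4, 9.79, 13.7, 5.50 and 5.99 with RA, 32.3, 40.1, 13.3 and 14.3 with PB and 5.76, 7.88, 2.67 and 4.20 with PB+RA. Replicates 1 and 2 were above replicates 3 and 4 in each group, and within each replicate number the order was DMSO, PB, RA and PB+RA from high to low. HTR3A was called lower with RA (log2 fold change -1.80 ± 0.44 (SE), adjusted p = 0.00603), with PB+RA (-2.59 ± 0.47, adjusted p = 0.000182) and in PB+RA against PB (-2.31 ± 0.47, adjusted p = 0.00140), and with PB the value was -0.28 ± 0.42, adjusted p = 0.599. The PB+RA change was -2.64 in replicates 1 and 2 and -2.57 in replicates 3 and 4. Against RA it was -0.79 ± 0.47, adjusted p = 0.174, called lower with the block (-0.80, adjusted p = 9.74e-07).

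HTR3B was 10.7, 14.6, 10.3 and 10.3 CPM in DMSO replicates 1 to 4, 7.25, 6.95, 7.01 and 7.93 with RA, 5.23, 7.64, 4.09 and 3.62 with PB and 0.676, 1.59, 1.495 and 1.54 with PB+RA. The DMSO libraries were above all others, and the PB+RA libraries were below all others without overlap. HTR3B was called lower with PB (log2 fold change -1.16 ± 0.22 (SE), adjusted p = 0.000316), after RA (-0.66 ± 0.21, adjusted p = 0.0240) and after both agents (-3.15 ± 0.25, adjusted p = 1.22e-08), and lower in PB+RA than in PB (-1.99 ± 0.26, adjusted p = 1.72e-05) and in RA (-2.48 ± 0.25, adjusted p = 4.45e-07). The interaction was called (-1.33 ± 0.33, adjusted p = 0.0280), so the fall with PB+RA was larger than the sum of the falls with each agent on the log2 scale. The RA call was lost without DMSO replicate 2 (-0.54, adjusted p = 0.0786). The interaction call was lost without DMSO replicates 1, 3 or 4, RA replicates 1, 3 or 4 or PB replicate 1, each left out in turn (-1.24 to -1.31, adjusted p from 0.0546 to 0.0723). Per kb, HTR3B stood at 0.231 ± 0.080 for each HTR3A in DMSO, 0.526 ± 0.220 with RA, 0.125 ± 0.036 with PB and 0.171 ± 0.107 with PB+RA. The genes lie 26.0 kb apart on chromosome 11 on the same strand. HTR3D and HTR3E had 2 and 1 counts in all.

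HTR3B, GABRQ and GRM8 are called members that fell with PB+RA, and their windows are given for comparison with those of the members that rose. HTR3B lies at chr11:113904546-113904845 on the plus strand, GABRQ at chrX:152637645-152637944 on the plus strand and GRM8 at chr7:127252892-127253191 on the minus strand, again from RefSeq on GRCh38.p14, with searched motifs in capitals.
HTR3B: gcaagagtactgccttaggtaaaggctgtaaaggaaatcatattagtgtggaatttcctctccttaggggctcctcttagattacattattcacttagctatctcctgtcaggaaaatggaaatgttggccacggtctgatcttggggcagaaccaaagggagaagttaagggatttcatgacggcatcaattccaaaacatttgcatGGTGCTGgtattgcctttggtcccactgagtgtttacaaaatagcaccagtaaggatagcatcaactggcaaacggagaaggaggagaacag
GABRQ: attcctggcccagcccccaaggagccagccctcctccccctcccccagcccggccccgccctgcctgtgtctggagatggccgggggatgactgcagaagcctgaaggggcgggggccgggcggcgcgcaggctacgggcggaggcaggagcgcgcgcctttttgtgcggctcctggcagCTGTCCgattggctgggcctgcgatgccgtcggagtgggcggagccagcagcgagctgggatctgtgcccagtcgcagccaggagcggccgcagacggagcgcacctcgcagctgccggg
GRM8: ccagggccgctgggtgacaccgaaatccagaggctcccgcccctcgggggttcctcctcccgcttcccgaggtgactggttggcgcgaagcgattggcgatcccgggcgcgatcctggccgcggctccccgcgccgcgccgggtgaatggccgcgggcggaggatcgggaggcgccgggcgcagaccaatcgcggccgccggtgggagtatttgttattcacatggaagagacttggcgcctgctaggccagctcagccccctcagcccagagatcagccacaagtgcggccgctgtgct
HTR3B held 1 match to CAGCACC, 42 bases before the start on the minus strand of the gene, and GABRQ 1 match to GGACAG, 70 bases before it on the minus strand. No searched motif was in the GRM8 window. HTR3B was the poorest in G and C of the 6 windows printed, with 3 CpG, against 27 CpG and 73.7% G and C in GABRQ and 34 CpG and 70.0% in GRM8.

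Several receptors kept an order of their replicate numbers across the groups. Over all genes, too, replicates 1 and 2 stood apart from replicates 3 and 4 in every group. Replicates 1 and 2 were the higher ones for HTR3A and GRID1, and replicates 3 and 4 for GABRQ, GRIN3A and GRM7, in each of the 4 groups. The change of GRID1 in PB+RA against PB was -0.75 in replicates 1 and 2 and -1.14 in replicates 3 and 4. For GABRQ the change with PB+RA was -1.66 in replicates 1 and 2 and -1.76 in replicates 3 and 4.

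**Figure D4:**
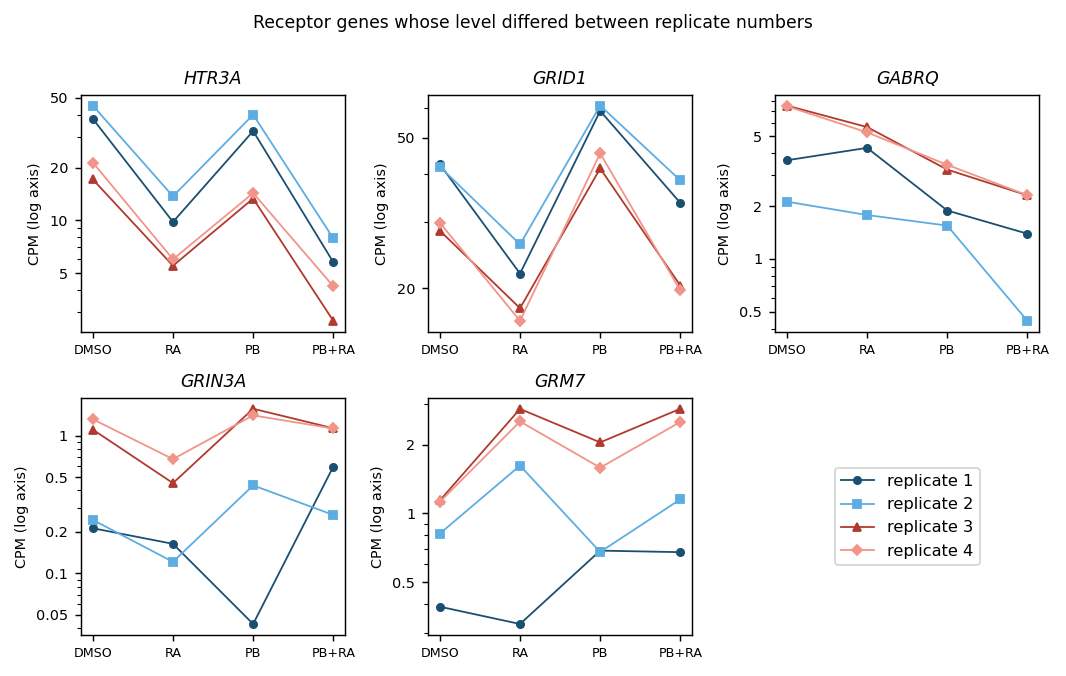
CPM on a log axis (vertical) of 5 receptor genes in the 4 groups (horizontal), with a line for each replicate number; the lines only join libraries of the same number, and the genes were chosen after their values had been seen. HTR3A runs from 17.1 to 45.2 CPM among the DMSO libraries, and its 4 lines keep the same order in all groups.

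Receptors work with auxiliary subunits, scaffolds, transporters and chaperones, and lists of these were examined for the same comparisons. Of 17 AMPA and kainate auxiliary subunits 10 were tested, and 7 were called higher and 1 lower with PB, 3 higher and 0 lower with RA, and 6 higher and 1 lower with PB+RA. Of 21 excitatory scaffolds and adhesion proteins 17 were tested, with 11 higher and 1 lower with PB, 5 higher and 1 lower with RA, and 12 higher and 0 lower with PB+RA. Of 14 inhibitory scaffolds and GABA receptor partners 13 were tested, with 6 higher and 0 lower with PB, 3 higher and 1 lower with RA, and 8 higher and 1 lower with PB+RA. The 12 tested genes of transmitter synthesis, loading and uptake were mixed, with 3 higher and 4 lower with PB, 3 higher and 2 lower with RA, and 5 higher and 3 lower with PB+RA. Of 9 tested chloride and bicarbonate transporters, 2 were higher and 1 lower with PB, 1 higher and 0 lower with RA, and 4 higher and 1 lower with PB+RA. Over all genes tested, 16.9% were called higher and 11.3% lower with PB, 10.8% higher and 2.54% lower with RA, and 24.0% higher and 17.9% lower with PB+RA. Median log2 fold changes with PB+RA were 0.72 for the auxiliary subunits, 0.88 for the excitatory scaffolds, 0.74 for the inhibitory partners, 0.04 for the transmitter genes and -0.08 for the chloride and bicarbonate transporters, against 0.04 for all genes. For the counts of 0 lower, also by edgeR, DESeq2 called 0 with the exception of 2 scaffolds with PB+RA, and 1 auxiliary subunit and 2 transporters with RA, 2 scaffolds with PB+RA and 1 inhibitory partner with PB were lower at an unadjusted p under 0.05. The lists share the controls of the receptor comparisons and were chosen with earlier results of these data known.

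Among the auxiliary subunits, CACNG7, which traffics AMPA receptors, read 0.922, 1.18, 1.90 and 2.09 CPM in DMSO and 5.61, 2.83, 10.6 and 14.2 with PB+RA (log2 fold change 2.41 ± 0.51, SE, adjusted p = 0.000660). NSG1, an endosomal protein that binds AMPA receptors, read 20.1, 12.5, 39.7 and 35.6 CPM in DMSO and 107, 91.3, 165 and 156 with PB (log2 fold change 2.27 ± 0.36, SE, adjusted p = 9.26e-05). Both groups stood clear of each other in these genes. CNIH3, a cornichon that slows AMPA receptor closing, went the other way, with 6.35, 5.83, 10.3 and 11.0 CPM in DMSO and 3.50, 3.76, 4.69 and 4.97 with PB+RA (log2 fold change -1.02 ± 0.25, SE, adjusted p = 0.00210).

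Of the scaffolds, DLG2, which anchors NMDA receptors and potassium channels, had 28.1, 19.4, 28.8 and 27.5 CPM in DMSO and 126, 99.5, 119.6 and 133 with PB+RA (log2 fold change 2.17 ± 0.15, SE, adjusted p = 4.03e-09). The groups did not overlap. HOMER3, which links metabotropic receptors to internal calcium stores, was lower, with 13.4, 11.3, 18.3 and 17.96 CPM in DMSO and 6.22, 7.45, 10.5 and 8.42 with PB (log2 fold change -0.90 ± 0.20, SE, adjusted p = 0.00108), and its relative HOMER2 was lower with RA, with 74.8, 67.7, 66.0 and 65.0 CPM in DMSO and 49.4, 50.5, 45.1 and 39.2 with RA (log2 fold change -0.58 ± 0.12, SE, adjusted p = 0.00119).

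On the inhibitory side, IQSEC3, a partner of the gephyrin scaffold, had 6.81, 5.91, 3.54 and 4.49 CPM in DMSO and 36.1, 32.9, 17.8 and 19.5 with PB+RA (log2 fold change 2.33 ± 0.26, SE, adjusted p = 1.14e-06). GABARAPL1, of the family that binds GABA-A receptors and acts in autophagy, had 31.2, 29.6, 31.3 and 33.7 CPM in DMSO and 152, 144.8, 161 and 156 with PB+RA (log2 fold change 2.26 ± 0.054, SE, adjusted p = 7.71e-14). Replicates of GABARAPL1 were close to each other in both groups. KCTD12, an auxiliary subunit of GABA-B receptors, was lower with RA, with 71.8, 51.5, 102 and 104 CPM in DMSO and 42.7, 26.5, 53.5 and 51.3 with RA (log2 fold change -0.93 ± 0.29, SE, adjusted p = 0.0223), and the call was lost without DMSO replicate 3, DMSO replicate 4 or RA replicate 2, each left out in turn (-0.76 to -0.83, adjusted p from 0.0541 to 0.0630). KCTD12 fell within each replicate number, and with the block the value was -0.92, adjusted p = 4.63e-06.

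Genes that make, load and clear the transmitters moved apart. SLC32A1, the vesicular transporter of GABA and glycine, had 11.5, 22.2, 2.21 and 4.14 CPM in DMSO and 60.6, 122, 20.9 and 26.2 with PB+RA (log2 fold change 2.51 ± 0.90, SE, adjusted p = 0.0237). The groups overlapped because replicate 2 was high and replicates 3 and 4 low in both, and the call was lost without DMSO replicate 3, DMSO replicate 4 or PB+RA replicate 2, each left out in turn (1.81 to 2.25, adjusted p from 0.0604 to 0.102). SLC32A1 rose within each replicate number, and with the block the value was 2.58, adjusted p = 1.16e-11. ABAT, which breaks down GABA, had 24.5, 23.5, 11.8 and 15.9 CPM in DMSO and 67.4, 52.7, 39.4 and 47.7 with PB (log2 fold change 1.45 ± 0.33, SE, adjusted p = 0.00170). The glutamate uptake transporter SLC1A3 had 22.1, 23.9, 16.7 and 19.9 CPM in DMSO and 2.19, 4.12, 2.30 and 3.95 with PB+RA (log2 fold change -2.75 ± 0.23, SE, adjusted p = 2.04e-08). SHMT1, which interconverts serine and glycine, had 24.9, 26.3, 22.4 and 25.5 CPM in DMSO and 5.33, 6.29, 6.91 and 7.69 with PB+RA (log2 fold change -1.95 ± 0.11, SE, adjusted p = 1.12e-10). Both of the latter fell in all 4 replicate numbers.

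Chloride handling sets the direction of GABA-A and glycine currents. SLC12A5, the neuronal exporter KCC2, had 3.08, 2.16, 2.15 and 1.70 CPM in DMSO and 5.57, 3.99, 5.33 and 4.25 with PB+RA (log2 fold change 1.04 ± 0.19, SE, adjusted p = 0.000107). The anion exchanger SLC4A3 had 8.30, 7.50, 9.68 and 9.68 CPM in DMSO and 32.5, 32.5, 29.2 and 25.3 with PB+RA (log2 fold change 1.74 ± 0.10, SE, adjusted p = 2.57e-10). Neither overlapped between groups. SLC12A4, the widely expressed exporter KCC1, was lower with PB, with 32.6, 33.6, 35.1 and 35.3 CPM in DMSO and 19.1, 20.4, 23.6 and 22.5 with PB (log2 fold change -0.67 ± 0.10, SE, adjusted p = 4.48e-05). Of the 2 chaperones of serotonin-3 and nicotinic receptors, both were called higher with PB+RA. RIC3 had 5.04, 3.91, 3.89 and 4.45 CPM in DMSO and 9.70, 8.68, 7.96 and 8.403 with PB+RA (log2 fold change 0.98 ± 0.12, SE, adjusted p = 1.21e-06) and TMEM35A had 7.59, 5.63, 9.08 and 9.44 CPM in DMSO and 19.99, 14.4, 27.02 and 29.8 with RA (log2 fold change 1.51 ± 0.24, SE, adjusted p = 0.000197).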

How the data were processed

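Expression was measured by RNA-seq in 16 samples of SK-N-BE(2)C cells, 4 each of DMSO, RA, PB and PB+RA, and groups and replicate numbers came from the sample titles. The authors selected polyadenylated RNA, made directional libraries, sequenced paired 50-nt reads, trimmed them with Trim Galore (0.6.4 in the submitters' processing notes) and aligned them to hg19 with STAR (2.6.1d), whose gene quantification gave the deposited counts, with no normalization. The annotation and the strand setting of the counts are not given in the sources used here, so reads of genes that overlap on opposite strands may be mixed. The deposited CPM are the authors' scaling of each count to its library total, and they equalled count over total within 1e-09. A deposited table of the authors' comparisons holds their DESeq2 fold changes and p-values and was not used.

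Counts were tested in R 4.3.3 with edgeR 4.0.16: filterByExpr kept 15415 of 27037 genes, TMM factors lay between 0.983 and 1.02, and 1 robust quasi-likelihood model with 4 group means and no block was fitted to the 16 samples. Every adjusted p is from edgeR's quasi-likelihood test, two-sided, with Benjamini-Hochberg adjustment over all genes tested, and a call also needed an absolute log2 fold change above 0.5. SE is the absolute log2 fold change over the square root of F. In PB against DMSO simulated for 15222 genes, 46.3% of genes changed by 0.6 on the log2 scale were called, 84.6% of those changed by 1 and 100% of those changed by 2, with 1 unchanged gene called. Only 67, 65 and 65 genes were changed there by these amounts, without a replicate effect, whereas 28.2% of genes were called in the data. The simulated rates therefore need not hold for these data. Same-numbered samples of different groups deviated together (all 24 pairs, r of 0.330 to 0.573 across genes), and 15 of the 16 samples were nearest to their own number. The numbers, taken from the titles, were used to pair the samples, and the fit with the replicate block was set beside the main one. Replicates 1 and 2 also stood apart from 3 and 4 in every group. In PB+RA the chi-square per gene was 9.37 between replicates 1 and 2, 5.00 between 3 and 4, and 28.4 to 31.1 across these pairs. What set the pairs apart was not tested. No 2 libraries of the same group were alike within sampling noise, and libraries of different groups were not compared in this way. Members, lists and tests were chosen with earlier results of these data known.

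Named members were those called in at least 1 comparison or the interaction with a mean of at least 0.5 CPM (at most 4 a class in full), the member of highest level per length in each class, called members under 0.5 CPM with their counts, and untested members with summed counts. From each partner list, the 2 largest rises and 2 largest falls against DMSO were named, if called and averaging 1 CPM or more. Some genes that the rule takes are not reported here, although counts and class sums include them. GRIN3A and GRM7 fall outside this rule and were chosen after their values were seen. Exon lengths are merged exons of GENCODE v44lift37 on GRCh37, the assembly of hg19, which may not be the authors' annotation, and promoters are from RefSeq on GRCh38.p14. Alternatives were DESeq2 1.42.0, its size factors, other filters and fold minimums, the replicate block with and without GC and length correction, only the groups compared, replicates 1 and 2 or 3 and 4 alone, and each sample left out.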

Additional observations from a re-analysis of the deposited data

Results flagged for a closer look

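Each group of 4 was examined for a library whose gap to its nearest neighbour was, by Dixon's test, too large a part of the group's range, for 19 tested members and the 10 classes. Of 116 groups, 7 were past that limit, and chance gives about 1 in 20. HTR3B in DMSO replicate 2 was at 14.6 CPM, above the other DMSO libraries at 10.3 to 10.7, and in PB+RA replicate 1 at 0.676 CPM, below the others at 1.495 to 1.59. GABRP in RA replicate 1 was at 0.41 CPM against 1.77 to 1.94, and in PB+RA replicate 4 at 0.461 CPM against 0.0795 to 0.133. GRIN1 in DMSO replicate 1 was at 2.20 CPM, below the others at 3.86 to 4.16, and GABBR1 in RA replicate 4 was at 0.721 CPM against 0.328 to 0.364. The glycine class in DMSO replicate 4 was at 0.0387 summed CPM, which is 1 count, against 0 in the other 3.

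The effect of PB differed with and without RA, by the interaction in edgeR's fit, for HTR3B (-1.33, adjusted p = 0.0280) and GRIN2D (-1.79, adjusted p = 0.0359). DESeq2 gave no adjusted p for the GRIN2D value.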

How the results depend on the processing

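Over 53 called member values, 1316 alternatives were computed, of which 1215 gave the same call, 101 gave no call and 0 changed sign. Over 79 uncalled values, 124 alternatives gave a call in the same direction, and 94 had the opposite sign with no call. Members called lower with PB numbered 2, but 5 with the replicate block, with or without GC and length correction, and in replicates 3 and 4 alone, and 4 with DESeq2. Members called higher with RA numbered 4, but 2 with a mean of at least 1 CPM or a log2 minimum of 1, 1 in replicates 1 and 2 alone and 7 in replicates 3 and 4 alone. Members called lower with RA numbered 7, but 4 in replicates 1 and 2 alone and 2 with a log2 minimum of 1. Members lower with PB+RA numbered 7, but 11 with the block and GC and length correction. Those lower against PB numbered 8, but 5 with a log2 minimum of 1, and against RA 6 were higher, but 2 with that minimum, and 5 lower, but 3 with a mean of at least 1 CPM. In the interaction 2 were lower, but 8 with the block, with or without that correction, 1 with a mean of at least 1 CPM, 1 in replicates 1 and 2 and 6 in replicates 3 and 4, where 1 was also higher. The causes were not tested. For the members named, the block alone changed no call beyond those given beside the results, and with GC and length correction it also called GRID1 lower with PB+RA (-0.61), and GRIN2D and GRM2 lower against PB (-0.80 and -0.68), but not GABBR1 or GRID1 higher with PB.

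With each library left out in turn, members higher and lower ranged from 6 to 8 and 1 to 4 with PB, 1 to 4 and 5 to 7 with RA, 5 to 5 and 7 to 10 with PB+RA, 0 to 0 and 8 to 9 against PB, 3 to 7 and 3 to 5 against RA, and 0 to 0 and 0 to 2 in the interaction. PB gave 4 lower without DMSO replicate 2 and 1 without DMSO replicates 3 or 4 or PB replicates 1 or 2. RA gave 2 higher without DMSO replicates 3 or 4 and 1 without RA replicate 2. Against RA, 3 were higher without PB+RA replicate 1 and 3 lower without RA replicate 4. The interaction gave 0 without DMSO replicates 1 or 4 or RA replicates 3 or 4, and 1 without DMSO replicates 2 or 3, any PB replicate, RA replicate 2 or PB+RA replicates 2, 3 or 4. Depth limits the 26 untested members, which had at most 127 counts over 16 libraries.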
